A study of Mus musculus with 25 samples.

Results

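The genes described here are 6 genes of antigen presentation by major histocompatibility complex (MHC) class I molecules, B2m, H2-K1, H2-D1, H2-Q2, H2-T23 and Tap1, and 1 interferon-induced gene, Ifi27. They were chosen by name, with their levels in these cells known, so the levels are a description. They make up 7 of the 30903 gene symbols in the table, and where a symbol stood on several rows, the one with the largest sum over cells was taken. Messenger RNA was measured in 25 single cells of the arcuate nucleus and median eminence of the hypothalamus. The donors, of strain (C57BL/6 x DBA)F2, were RIP-Cre mice, in which a rat insulin promoter drives Cre recombinase, and the cells were marked with green fluorescent protein (GFP) from a Cre-dependent adeno-associated virus. Papain-treated tissue of 2 adult males with an average age of 63 days was pooled, GFP-positive cells were then isolated manually, and each was made into a Smart-Seq2 library. The cells form 1 group and 1 pooled sample with no second group to set against it, so the cells were not treated as replicates, no test was run and no p-value is given.

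A class I molecule is a heavy chain, encoded in the H2 complex of the mouse, held together with the light chain beta-2 microglobulin and a short peptide. Peptides are cut by the proteasome, pumped into the endoplasmic reticulum by the transporter Tap1-Tap2, and loaded there with the help of chaperones. Neurons are known for low class I expression that interferons can raise, and class I molecules have also been given roles in the shaping of synapses.

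Levels are in RPKM, reads per kilobase of gene, normalised to the reads of the cell. A gene is called counted where its level was 10 RPKM or more, and cell numbers are those of the labels. The estimated depth was lowest in cell 9 (856500 reads), highest in cell 11 (2975500 reads) and 1768000 reads in the median cell. All 8 neuronal markers were counted in at least 13 cells each, and each cell held 5 to 8 of them. Of 12 markers of microglia and macrophages, which carry class I molecules, 9 stood at 0 in all 25 cells, C1qa, P2ry12, Tyrobp and Ptprc among them. Cell 29 had the most genes at 10 RPKM or more (6183, against a median of 4896), and it belongs to 6 cells (1, 3, 5, 6, 29 and 31) in which the nuclear RNA Malat1 stood at 16.6 RPKM or less, against 45.9 to 196 RPKM in the other 19. The labels do not say which mouse a cell came from, so differences between cells and between the mice cannot be told apart. DBA mice carry another H2 haplotype than the C57BL/6 strain of the reference genome, and the part of this in the mapping of reads was not tested.

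Both classical heavy chain genes lie in the H2 complex on chromosome 17 of GRCm38, H2-K1 at chr17:33996017-34000347 on the minus strand and H2-D1 at chr17:35262730-35267499 on the plus strand. So do the non-classical heavy chain genes H2-Q2, at chr17:35342242-35346762 on the plus strand, and H2-T23, at chr17:36029773-36032855 on the minus strand, as well as the transporter gene Tap1, at chr17:34187553-34197225 on the plus strand. B2m lies apart at chr2:122147686-122153083 and Ifi27 at chr12:103434211-103440239, both on the plus strand. The promoters of the light chain, of both classical heavy chains and of H2-Q2 are printed to show what the genes share in sequence and where they differ. They are RefSeq windows of GRCm38.p6, 300 bases long and mostly before the start, at chr2:122147437-122147736 for B2m, chr17:35262844-35263143 for H2-D1, chr17:34000298-34000597 for H2-K1 and chr17:35342057-35342356 for H2-Q2. Each is written 5' to 3' along the gene's strand, and capitals mark matches on either strand to a kappaB motif (the run of 11 capitals), GAANNGAAA and the same with 1 further A in its first GAA (the run of 10 capitals in B2m), both forms of the interferon response element, TGACG (CRE core) and CCAAT.
B2m: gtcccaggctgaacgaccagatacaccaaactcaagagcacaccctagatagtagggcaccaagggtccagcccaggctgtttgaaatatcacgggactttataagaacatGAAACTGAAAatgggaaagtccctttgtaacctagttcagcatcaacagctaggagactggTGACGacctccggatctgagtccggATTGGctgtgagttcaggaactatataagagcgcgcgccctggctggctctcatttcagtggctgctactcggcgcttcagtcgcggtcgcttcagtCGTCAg
H2-D1: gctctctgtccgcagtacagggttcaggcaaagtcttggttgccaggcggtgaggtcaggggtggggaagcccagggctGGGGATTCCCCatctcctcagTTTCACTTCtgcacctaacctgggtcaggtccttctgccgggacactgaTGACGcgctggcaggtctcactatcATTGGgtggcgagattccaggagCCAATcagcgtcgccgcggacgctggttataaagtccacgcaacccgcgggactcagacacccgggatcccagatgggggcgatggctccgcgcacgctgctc
H2-K1: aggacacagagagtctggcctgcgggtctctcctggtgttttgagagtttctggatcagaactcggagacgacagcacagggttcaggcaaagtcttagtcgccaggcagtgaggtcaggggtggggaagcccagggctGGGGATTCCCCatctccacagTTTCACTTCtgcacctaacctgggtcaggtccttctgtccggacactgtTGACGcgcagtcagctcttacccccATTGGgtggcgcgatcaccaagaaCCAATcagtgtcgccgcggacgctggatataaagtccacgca
H2-Q2: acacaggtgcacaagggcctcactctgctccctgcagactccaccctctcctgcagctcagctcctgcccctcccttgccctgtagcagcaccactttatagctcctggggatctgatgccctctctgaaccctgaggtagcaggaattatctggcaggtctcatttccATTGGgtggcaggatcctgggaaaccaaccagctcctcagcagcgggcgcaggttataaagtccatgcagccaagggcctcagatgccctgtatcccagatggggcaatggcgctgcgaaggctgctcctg
The kappaB motif and GAANNGAAA were found in H2-D1 and H2-K1. The kappaB motif lay 171 bases before the annotated start in H2-D1 and 111 bases before it in H2-K1. In another H2-K1 window with a different annotated start, the distance was 125 bases, so it depends on that start. The motifs followed each other at nearly the same spacing. Their first bases were 80, 101, 150, 175 and 198 in the H2-D1 window and 140, 161, 210, 235 and 259 in the H2-K1 window. The letters of the kappaB motif occur in 10 of 32851 promoter windows (0.0304%). These include the H2-D1 window and both H2-K1 windows, so this share is not independent of them and shows no enrichment. GAANNGAAA occurs in 7.52% of all windows. The longer form, present in 3.44% of all windows and added after the sequences were seen, occurred in B2m and H2-T23. TGACG, present in 20.8% of all windows, occurred in B2m, H2-D1, H2-K1 and Tap1. CCAAT, present in 37.4%, occurred in all 6 promoters that matched and was the only 1 of the 5 motifs in H2-Q2. No motif overlapped another. The H2-K1 window is the first of 2 in the table, the H2-D1 window lies inside the GENCODE span of that gene, and Ifi27 had no entry. A match is a description of these letters only.

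B2m, which encodes the light chain that all the heavy chains named here bind, was counted in 7 of 25 cells (28%, exact Clopper-Pearson 95% interval 12.1 to 49.4%). All such intervals cover counting error alone. Its level was 159 RPKM in cell 43, 144 in cell 29, 73.7 in cell 25, 66.9 in cell 6, 58.1 in cell 8, 38.1 in cell 1 and 18.95 in cell 11. Cells 43 and 29 thus stood well above the other 5, and the range was 8.39-fold. Cell 9 had 5.26 RPKM and the remaining 17 cells were listed at 0, which gave a mean of 22.6 ± 44.9 RPKM (SD over 25 cells). At the median depth 10 RPKM of B2m is about 15.2 reads, and 1 read is about 0.658 RPKM. The gene lies inside the span of Patl2 on the opposite strand, which was listed at 0 in every cell.

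H2-D1, a classical heavy chain that presents peptides to cytotoxic T cells, was counted in 10 cells (40%, interval 21.1 to 61.3%). It was highest in cells 8, 29 and 12, at 127, 108 and 96.3 RPKM. Cells 43, 34, 6, 3 and 13 followed at 78.8, 76.8, 76.7, 64.0 and 53.0 RPKM, and cells 9 and 11 were lowest at 33.2 and 28 RPKM. Cells 2, 4 and 24 held 0.24 to 0.70 RPKM, at most a few reads where 1 read is worth about 0.219 RPKM at the median depth, and 12 cells were listed at 0. No cell lay between 0.70 and 28 RPKM, so the 10 cells stood clear of the rest.

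H2-K1, the other classical heavy chain, was counted in 3 cells (12%, interval 2.55 to 31.2%). Cell 29 had 97.3 RPKM, cell 25 had 83.1 and cell 5 had 16.64, while cell 32 had 4.60 and 21 cells were listed at 0. Without the 6 cells low in Malat1, which include cells 5 and 29, its share was 5.26%. Of the 12 cells with H2-K1 or H2-D1 only cell 29 had both. H2-K1 was thus counted in 1 of the 10 H2-D1 cells, against 2 of the 15 others, and so few cells say little about the pair.

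H2-Q2, a heavy chain gene of the Q region of the H2 complex, was counted in the most cells of the 7 genes, 12 of 25 (48%, interval 27.8 to 68.7%). Cells 29, 13, 4, 10 and 9 were highest, at 167, 156, 144.5, 119.5 and 109 RPKM. Cells 14, 6, 24 and 7 lay at 92.1, 73.6, 67.7 and 67.4 RPKM, and cells 1, 17 and 32 at 46.6, 28.6 and 23.1 RPKM. The other 13 cells were listed at 0, so no value fell between 0 and 23.1 RPKM.

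H2-T23 encodes Qa-1, a non-classical heavy chain that displays leader peptides of other class I chains to receptors of natural killer cells. It was counted in 5 cells (20%, interval 6.83 to 40.7%), at 84.0 RPKM in cell 9, 59.4 in cell 13, 53.4 in cell 6, 25.4 in cell 32 and 21.8 in cell 29. It had the most low values of the 7 genes, with 9 cells between 0.64 and 9.52 RPKM and 11 cells at 0, so its share was 40% at a level of 1 RPKM. H2-T23 overlaps the antisense gene A930015D03Rik, which was counted in cells 7, 13, 29 and 32 and reached 87.0 RPKM in cell 13. Smart-Seq2 does not mark strand, so reads from the stretch these genes share cannot be told apart, and cells 13, 29 and 32 are in both sets.

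Tap1, which forms the peptide transporter together with Tap2, was counted in 3 cells (12%, interval 2.55 to 31.2%), at 27.2 RPKM in cell 2, 22.1 in cell 32 and 17.7 in cell 29. Cells 9, 7 and 11 had 8.16, 7.37 and 4.95 RPKM and 19 cells were listed at 0, so the share was 24% at a level of 1 RPKM. At the median depth 10 RPKM of Tap1, the longest of the 7 genes, is about 96.8 reads. The first 212 bases of the gene also lie in Psmb9, an immunoproteasome gene on the opposite strand, and cell 29 was the only cell with both.

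Ifi27, which encodes a small hydrophobic protein induced by type I interferons, was counted in 8 cells (32%, interval 14.9 to 53.5%) and reached the highest levels of the 7 genes. Cells 25, 31, 27 and 24 had 372, 277, 265 and 211 RPKM. Cells 11, 26, 13 and 34 had 189.5, 188, 150.01 and 68.0 RPKM, and the other 17 cells were listed at 0. Its relative Ifi27l2a was above 0 in 1 cell, at 1.24 RPKM in cell 27, and Ifi27l2b was listed at 0 in every cell.

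**Figure D1:**
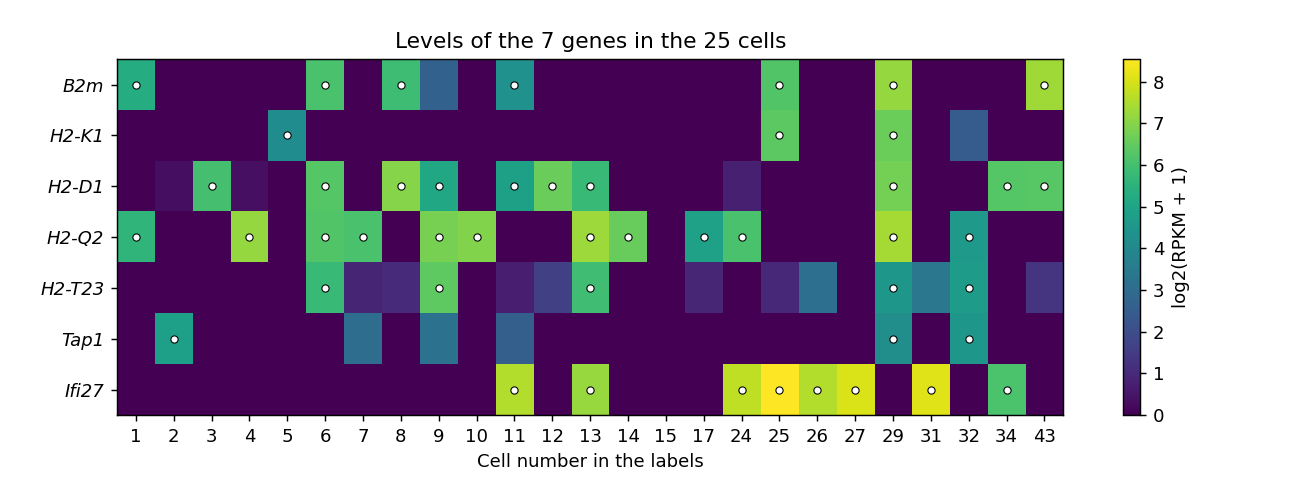
Level of each of the 7 genes (rows) in each of the 25 cells (columns, by cell number), as log2(RPKM + 1) on the colour scale, with a white dot where the level was 10 RPKM or more. Cell 29 has a dot for 6 of the 7 genes and cell 15 for none, and the Ifi27 dots lie mostly in cells without H2-Q2.

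**Figure D2:**
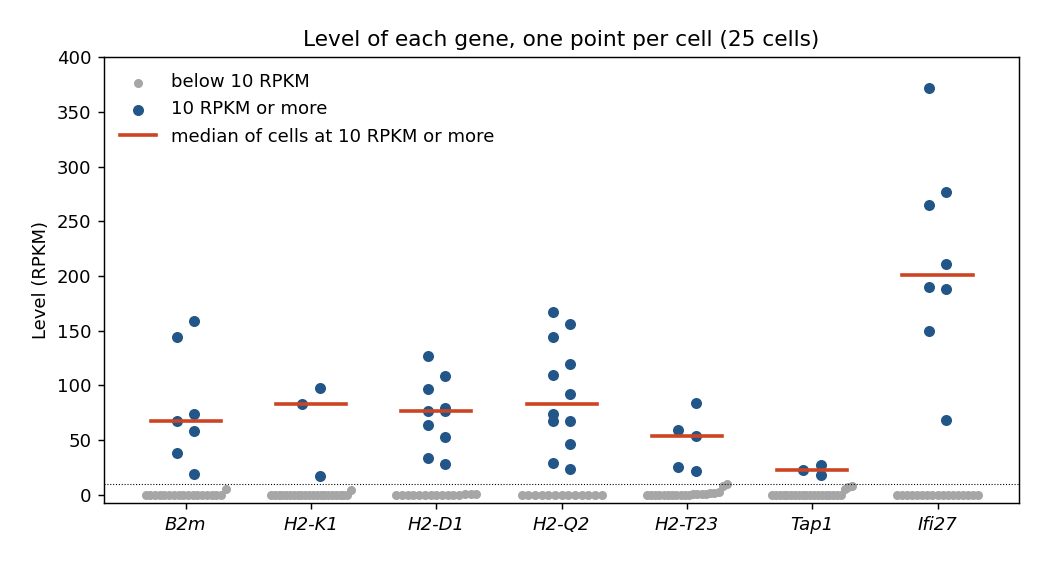
Level in RPKM of each gene on a linear axis, 1 point per cell, grey below 10 RPKM and blue at 10 RPKM or more. The dotted line marks 10 RPKM and the red bar the median of the blue points, which is 200.4 RPKM for Ifi27, 82.9 for H2-Q2 and 22.1 for Tap1.

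By mean RPKM over the 25 cells the order was Ifi27 (68.8), H2-Q2 (43.8), H2-D1 (29.7), B2m (22.6), H2-T23 (10.8), H2-K1 (8.07) and Tap1 (3.50). No pair of neighbours in this order was further apart than the SD over cells of the higher gene, which was 114 RPKM for Ifi27, 57.0 for H2-Q2, 41.7 for H2-D1, 44.9 for B2m, 22.2 for H2-T23 and 25.0 for H2-K1. Within cells the order often turned: Ifi27 was higher than H2-Q2 in 7 cells, lower in 11 and equal, at 0, in 7. The medians over all cells were 0.86 RPKM for H2-T23, 0.24 for H2-D1 and 0 for the other 5 genes. None of the 7 was counted in 13 cells or more. Among all symbols 42.7% were counted in at least 1 cell, in a median of 7 cells, which is also the median over the 7 genes, and 13.5% were counted in at least 13.

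The genes were spread unevenly over the cells. Cell 29 had 6 of the 7 and lacked only Ifi27, and cells 6 and 13 had 4 each. Cells 9, 11, 25 and 32 had 3 each, 5 cells had 2, 12 cells had 1 and cell 15 had none. The number per cell (median 1, mean 1.92 ± 1.35 SD) had a Spearman rho of -0.28 with estimated reads and of 0.02 with the number of genes at 10 RPKM or more, over 25 cells of 1 pool. With the number of other pathway genes counted, of 115 listed further on, rho was 0.34, and 0.25 without cell 29 and 0.22 without the 6 cells low in Malat1. Cell 29 was highest there too, with 31 of the 115, against a median of 18 and a lowest value of 14 in cells 17 and 43. It was also a deep cell, with 2647800 estimated reads, and had the most genes of any kind at 10 RPKM or more. Over the 25 cells the number of other pathway genes had a rho of 0.40 with the number of all genes at that level and of 0.18 with estimated reads.

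**Figure D3:**
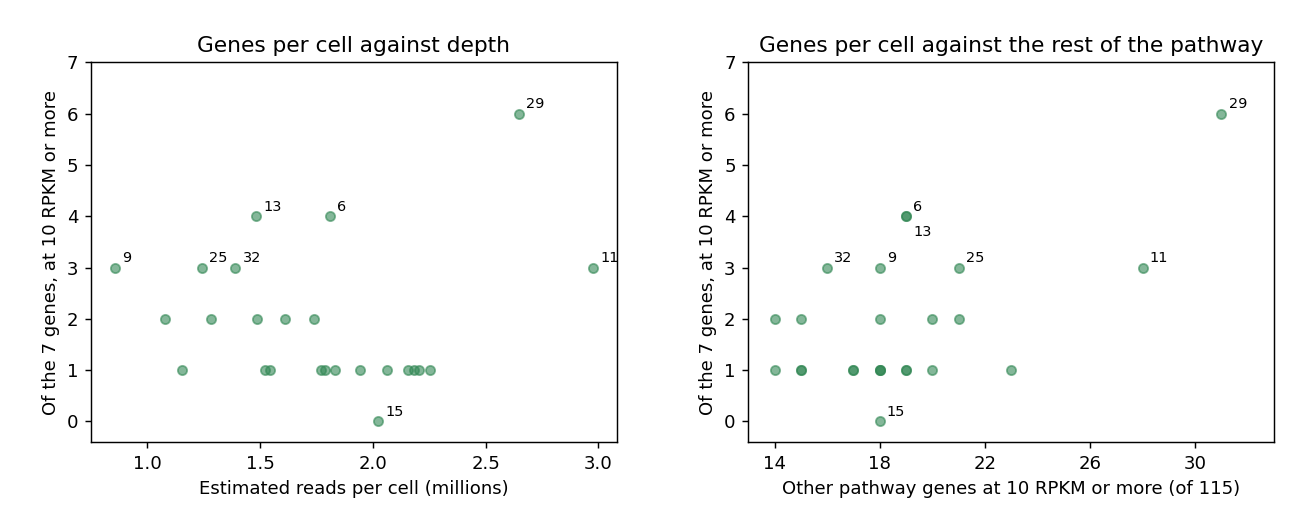
Number of the 7 genes at 10 RPKM or more in each cell, against estimated reads (left) and against the number of the 115 other pathway genes at 10 RPKM or more (right), 1 point per cell, darker where points coincide. Cell 29 lies at 6 genes and 31 pathway genes, and cell 9, the shallowest, has 3 genes.

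All 7 B2m cells also had at least 1 of the heavy chains H2-K1, H2-D1, H2-Q2 and H2-T23, whereas 13 of the 18 other cells had one. In 12 of those 13 cells B2m was listed at 0. B2m went with a classical chain, H2-K1 or H2-D1, in 6 of its 7 cells. B2m, a classical chain, Tap1 and Tap2 were counted together in cell 29 only.

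Of the 21 pairs among the 7 genes, B2m and H2-D1 had the highest Spearman rho over the 25 cells, 0.44. H2-D1 was counted in 5 of the 7 B2m cells (6, 8, 11, 29 and 43), against 5 of the 18 other cells. The rho was 0.35 without cell 29 and 0.40 without the 6 cells low in Malat1. Over all pairs the median rho was 0.06, with 16 pairs above 0 and 5 below. Without cell 29 the numbers were 11 and 10, and without the 6 cells low in Malat1 they were 12 and 9, so the sign of many pairs rested on a few cells. The cells share a pool and differ in depth, many values are tied at 0, and such correlations only describe these cells.

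H2-T23 and H2-Q2 went together in a different way: all 5 H2-T23 cells had H2-Q2, against 7 of the 20 other cells, at a rho of 0.21. That rho was 0.11 without cell 29 and 0.03 without the 6 cells low in Malat1. H2-Q2 and Ifi27 had the lowest rho, -0.29, and shared cells 13 and 24. Ifi27 was counted with at least 1 of the other 6 genes in 5 of its 8 cells (11, 13, 24, 25 and 34), and in cells 26, 27 and 31 it was the only 1 of the 7. It shared no cell with Tap1, but Tap1 was counted in 3 cells only, and Ifi27 was counted in 8 of the 22 others. So few cells say little about this pair.

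H2-Q1, the heavy chain gene that lies 17142 bases before H2-Q2, had the pattern most like H2-Q2 over the 25 cells among 8135 genes counted in at least 5 cells (rho 0.84). It was counted in 7 cells (4, 6, 7, 10, 13, 24 and 29), all of them H2-Q2 cells, at most at 21.8 RPKM (cell 24). In the 11 cells with both above 0, H2-Q2 exceeded H2-Q1 by 3.11- to 13.5-fold, with a median of 6.87-fold. Cell 9 had H2-Q2 at 109 RPKM with H2-Q1 at 0, and cell 2 had H2-Q1 at 5.23 RPKM with H2-Q2 at 0. The transcripts of the genes are alike in part: 12.9% of the 50-base words of H2-Q2 also occur in H2-Q1, and 5.09% of its 100-base words. The read length is not given in the sources used here, and the part of shared reads in this likeness was not tested.

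**Figure D4:**
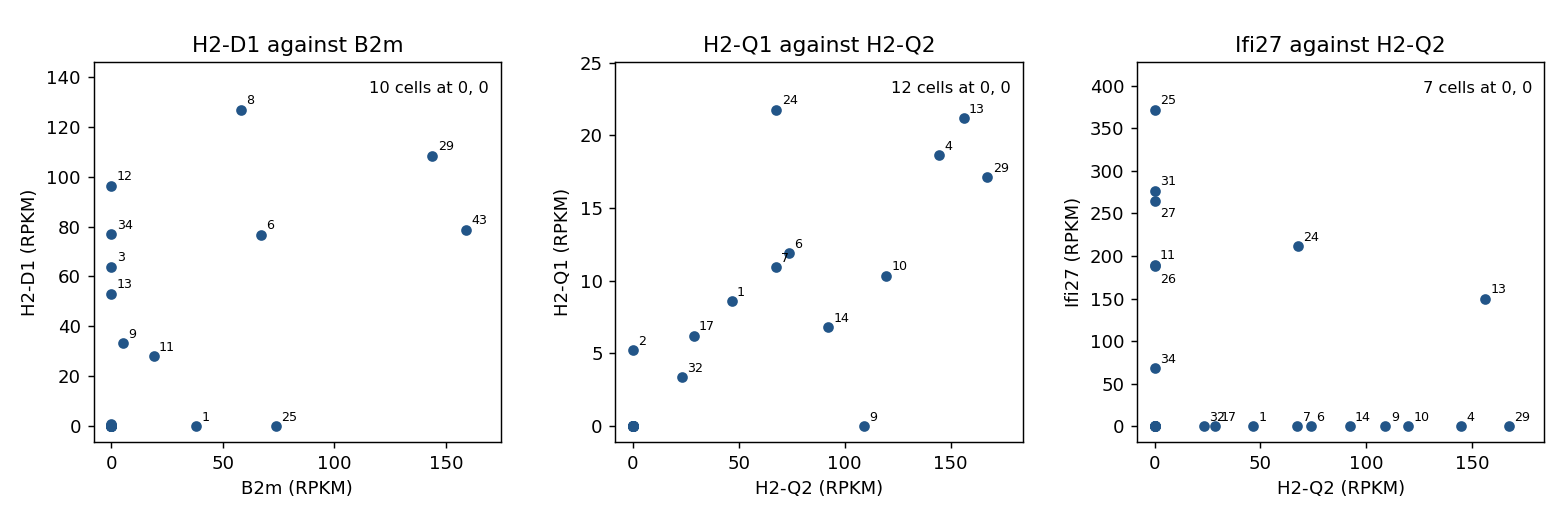
Levels in RPKM of H2-D1 against B2m, H2-Q1 against H2-Q2 and Ifi27 against H2-Q2, 1 point per cell with its number, on linear axes; cells below 1 RPKM for both genes lie at the origin without a number. H2-Q1 follows H2-Q2 apart from cells 2 and 9, and only cells 13 and 24 have both Ifi27 and H2-Q2.

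The other heavy chains share words with relatives as well, so reads could be split among them. Of the 50-base words, 16.1% of H2-Q2, 14.5% of H2-T23, 12.8% of H2-D1 and 9.63% of H2-K1 occur in at least 1 other gene, against 3.33% of Tap1 and none of B2m or Ifi27. Of the 100-base words the shares were 5.09% of H2-Q2, 3.15% of H2-T23, 3.59% of H2-D1, 0.957% of H2-K1 and 1.93% of Tap1. How far shared reads moved the levels was not tested, so the values of the 4 heavy chains are uncertain.

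Further genes close to H2-Q2 by rho were Slc30a10, a manganese transporter (0.82, counted in 6 cells, all H2-Q2 cells), and Tbx3, a T-box transcription factor (0.77, 9 of its 11 cells). Rasd2, a small GTPase, followed at 0.76, with all 9 of its cells among the H2-Q2 cells, and Tbc1d15 at 0.74. Genes most like B2m included 2310030G06Rik (0.74), Mkl1 (0.73), Il11ra1 (0.67) and Bola1 (0.64). For H2-D1 the nearest were the autophagy protease Atg4d (0.63), the co-chaperone Stip1 (0.62), Ppp1r35 (0.61), Lrrc8a (0.60) and Bloc1s4 (0.60). H2-T23 was nearest to E4f1 (0.74), the mitochondrial ribosomal protein Mrps18b (0.69), Scrn1 (0.67), the histone deacetylase Hdac1 (0.67) and 3010026O09Rik (0.66). Ifi27 was nearest to Ttc39b (0.74), the doublecortin-like kinase Dclk1 (0.70), Trim45 (0.69), Nyap2 (0.67) and Ubqln4 (0.67). None of the 5 nearest genes of H2-D1 or H2-T23 was among the 5 nearest by Pearson's r on log2(RPKM + 1), against 4 for B2m and 3 each for H2-Q2 and Ifi27.

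The cells can also be grouped by other genes at 10 RPKM or more, chosen after the values were seen. H2-Q2 was listed at 0 in all 7 cells with the transcription factor gene Lhx1, whereas 12 of the 18 other cells had it, and it was counted in 5 of the 7 cells with Tbx19, against 7 of the 18 others. Among 8 cells with Th, which encodes tyrosine hydroxylase, H2-Q2 was counted in 1, at 46.6 RPKM, against 11 of the 17 others. Cells 3, 8, 11, 12, 15 and 26 are in both the Lhx1 and the Th group, so these are not separate observations. The share of all genes that were absent from the Lhx1 cells is not given here. H2-D1 was counted in 5 of the 8 Th cells, against 5 of the 17 others. In the 5 cells with somatostatin (Sst), B2m was counted in 3 (1, 6 and 25), against 4 of the 20 others. All 3 Tap1 cells were among the 10 cells with Glp1r, the receptor for glucagon-like peptide 1. With 25 cells in 1 pool these counts were not tested.

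The other genes of the pathway are given by lists chosen with earlier results known. The 122 list genes found in the table include the 7, and 66 of them (54.1%) were counted in at least 1 cell and 13 (10.7%) in at least 13, against 42.7% and 13.5% of all symbols. Of 27 heavy chain genes of the H2 complex, 12 (44.4%) were counted in at least 1 cell and none in 13 or more. Beside those named above, H2-T24 was counted in 4 cells (highest 70.7 RPKM, cell 14), H2-M3, which presents formylated peptides, in 3 (highest 124 RPKM, cell 15), and H2-T9 in 3. H2-Q10, H2-Q5, H2-Q6 and H2-M5 were counted in 1 cell each, while H2-Bl, H2-M1, H2-M10.1 and H2-M10.2 were listed at 0 in every cell. Outside the complex, the lipid-presenting Cd1d1 was counted in 5 cells (6, 11, 25, 26 and 31) and Hfe, a regulator of iron uptake, in cell 15 alone at 100.1 RPKM, and Mr1 was listed at 0.

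Peptide supply was split between frequent and rare genes. The chaperones Calr and Canx and the disulphide isomerase Pdia3, which serve all glycoproteins, were counted in all 25 cells at medians of 124, 106 and 180 RPKM. Tapasin (Tapbp), which docks class I molecules to the transporter, was counted in 15 cells and its relative Tapbpl in 8. Tap2 was counted in 5 cells (5, 8, 10, 11 and 29), of which cell 29 alone also had Tap1, and the trimming peptidase Erap1 in 4. The constitutive proteasome subunits Psmb5, Psmb6 and Psmb7 were counted in all 25 cells at medians of 265, 235 and 59.7 RPKM. Of their immunoproteasome counterparts, Psmb10 was counted in 21 cells (median 69.6 RPKM), Psmb9 in cells 6, 7, 25 and 29 and Psmb8 in cell 29 alone, at 98.5 RPKM. The activators Psme1, Psme2 and Psme3 were counted in 25, 23 and 18 cells.

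Regulators of class I transcription were counted in fewer than 13 cells each. Nlrc5, the class I transactivator, stayed at 0.09 RPKM or less, and 0 of 25 cells allows a share of up to 12% by a limit of 3 counts, which covers counting error only and not transcripts lost in the library. Of the subunits of NF-Y and RFX, factors that bind class I promoters, Nfyb was counted in 12 cells, Nfyc and Rfxap in 10 each, Rfx5 and Rfxank in 5 each and Nfya in none. The interferon-induced factor Irf1 and the kappaB factor Nfkb1 were counted in 4 cells each, and Creb1 in none.

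No interferon gene of the list (Ifna4, Ifnb1, Ifng and Ifnl2) was above 0 in any cell. Receptor subunits were present: Ifngr2 in 11 cells, Ifnar1 and Ifnar2 in 9 each and Ifngr1 in 5. The kinase Jak1 was counted in 20 cells (median 37.6 RPKM), Irf9 in 7, and Stat2 and Irf3 in 5 each. Of 29 further interferon-stimulated genes, 11 (37.9%) were counted in at least 1 cell, against 42.7% of all symbols. Lgals3bp was the only one in 13 or more (3.45%, against 13.5% of all symbols), in 17 cells at a median of 50.02 RPKM. Next came Ifi35 in 5 cells, Irgm1 in 3, and Ifit2 and Ddx58 in 2 each, while Bst2, Cxcl10, Gbp2 and Gbp3 were listed at 0 in every cell.

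The 8 Ifi27 cells held 0 to 3 of these 29 genes each (median 1), against 0 to 4 (median 1) in the 17 other cells. The 7 B2m cells held 1 to 4 of them (median 2), against 0 to 3 (median 1) in the 18 others. B2m cells also held 6 to 9 of the 9 proteasome genes (median 7), against 5 to 7 (median 6.5) in the others. These ranges overlap throughout.

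Of 7 genes for receptors and partners of class I molecules, none was counted in any cell. Among all symbols 42.7% were counted in at least 1 cell. The receptor chains Cd3e and Cd247 and the neuronal class I receptor Pirb were listed at 0 throughout, and Cd8a and Cd8b1 stayed at 0.38 RPKM or less. MHC class II genes were nearly absent as well: H2-Aa was listed at 0, Cd74 reached 6.54 RPKM in cell 1 only, and H2-DMa was counted in cell 2 at 114 RPKM.

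**Figure D5:**
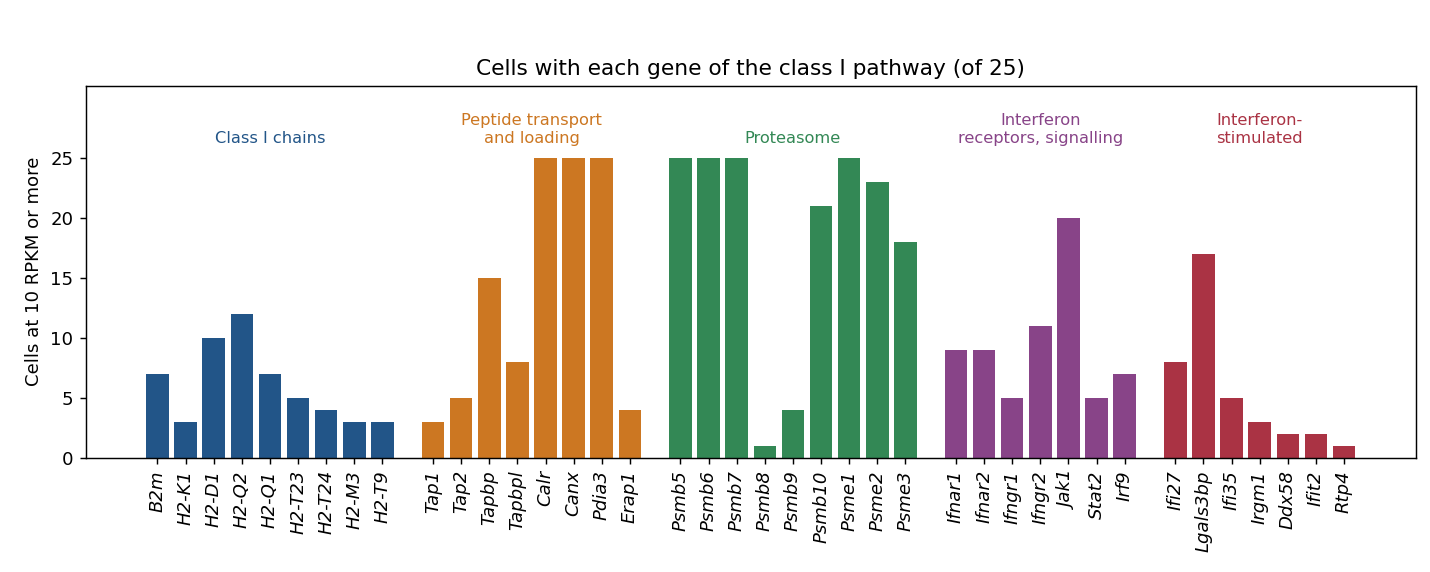
Number of the 25 cells with each gene at 10 RPKM or more, grouped by role, for genes of the class I chains, peptide transport and loading, the proteasome, interferon receptors and signalling, and interferon-stimulated genes. Calr, Canx, Pdia3, Psmb5, Psmb6, Psmb7 and Psme1 reach 25 cells, H2-Q2 reaches 12 and Tap1 3.

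Endothelial cells also express class I genes. The summed level of 9 endothelial markers had a rho of 0.48 with the number of the 7 genes per cell. This was the highest rho among the marker sets of all cell types. For the others it ranged from -0.32 (oligodendrocyte lineage) to 0.17 (astrocyte), with 0.04 for the neuronal markers. Of the endothelial markers, Cldn5, Kdr, Tek, Ly6c1 and Slco1a4 stood at 0 in all 25 cells. The endothelial sum came mainly from Egfl7, counted in 11 cells, Itm2a in 7 and Pecam1 in 4. It was 26.7 to 193 RPKM (median 52.8) in the 7 B2m cells, against 0 to 190 RPKM (median 15.7) in the 18 others. Its part in the result was not tested. The T cell genes Cd3d, Cd3e and Cd3g stood at 0 in all 25 cells, while Lck was counted in 8.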

How the data were processed

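RNA of 25 cells was measured. The deposited data are a single expression table. Its values are RPKM by their form (decimals in steps that scale with gene length), although the deposited table is named as gene counts, so no count model was used. The builds mm10 and GRCm38 and the tools featureCounts 1.4.6, SAMtools 0.1.19, TopHat2 2.0.14, Picard 2.5.0 and bcl2fastq are named, per the submitters' processing notes. Their roles, the annotation and the read length were not given in the sources used. Without molecular identifiers, reads are not independent molecules.

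The table's 33082 rows gave 30903 symbols after 26 rows with date-like names were left out. Lengths and positions came from GENCODE M21 (22754 symbols). They may differ from the authors' lengths: value times length summed to a median of 1.41 times the expected total, so depth and read numbers are estimates. In 8 simulated cells the depth estimate was off by at most 1.27%. Those cells were made with the same GENCODE lengths, so an error from differing lengths is not covered by this value. pandas 2.3.3 and SciPy 1.17.1 were used under Python 3.11.15.

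The genes and lists were chosen with earlier results of these data known. The genes named are the 7, up to 6 per list counted in most cells and up to 4 counted in none (some are not reported here), and the 5 nearest by rho of each gene in at least 5 cells; others were named after their values were seen. Listed symbols missing from the table were not analysed here. A planned comparison of protein sequences was not made, and shared transcript words of 50 and 100 bases were counted instead.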

Additional observations from a re-analysis of the deposited data

How the results depend on the processing

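Shares of cells for the 7 genes were recomputed at levels of 1, 5 and 20 RPKM, with repeated rows summed, with each cell rescaled to a sum of 1000000, without the 6 cells low in Malat1 and without cell 29. Median levels were recomputed with summed rows, with rescaling and without the low-Malat1 cells. The median number per cell was recomputed at the other levels and without cell 29. The median pair correlation was recomputed with Pearson's r at pseudocounts of 1 and 0.1 RPKM, with rescaling and without either set of cells. The list counts were recomputed at 1 RPKM and without cell 29, and the list shares over symbols above 0 in at least 1 cell. Leaving out cell 29 was added after seeing the data. Of 85 values for 20 results, 84 stayed within the counting interval or spread of the reported value, or within 0.2 of it for the correlation. The exception was the share of list genes counted in at least 1 cell, which was 78.6% when only symbols above 0 in at least 1 cell entered, against 54.1% over all; fewer genes enter the denominator by construction. The intervals are wide, so a share can move well within them, as those of H2-K1, H2-T23 and Tap1 did. That of Tap1 was 8.33% without cell 29. The limit of 0.2 is also wide beside a median rho of 0.06, and the signs of single pairs changed within it. With all cells 16 pairs were above 0 and 5 below, and without cell 29 there were 11 and 10. At the median depth 1 read is worth 0.658 RPKM of the short B2m and 0.103 RPKM of the long Tap1, so depth limits low values of B2m more. No paired analysis was possible because the cells form 1 group with no shared replicate numbers.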
